A study of Mus musculus with 8 samples.

Results

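The genes described here are 10 that mark neutrophils: S100a8, S100a9, Retnlg, Mmp8, Mmp9, Cxcr2, Csf3r, Il1r2, Ngp and Ltf. They were found by matching these symbols to the Ensembl identifiers of a table of read counts in mouse heart, and all 10 were among its 33105 genes. Messenger RNA was sequenced in hearts of C57BL/6J mice that had mitral regurgitation (MR, n = 4 libraries), produced by a minimally invasive operation, and of C57BL/6J mice that had a Sham procedure (n = 4 libraries). The series asked which signalling pathways take part when a heart loaded with extra volume enlarges, and which genes characterise that state. No genotype or drug is named, so both groups share the strain and the tissue and differ in the procedure. Age, sex, the part of the heart taken, the time after surgery and whether the blood was flushed out are not stated in the labels. Nor do the labels say that each library was made from an animal of its own. Every p-value therefore describes the variation among these 8 libraries, some of which may be technical.

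Neutrophils are short-lived white cells that mature in the bone marrow, circulate in the blood and enter damaged tissue within hours. Their granules are filled in order during maturation: the proteins of the primary, secondary and tertiary granules are transcribed in the marrow and mostly shut off before release, while surface receptors and the calprotectin subunits are transcribed in circulating cells too. A frozen heart holds neutrophils of the tissue and of any blood left in its vessels. For that reason the 10 genes are set beside the haemoglobin genes, whose transcripts come from young red cells, in each library.

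MR libraries held 49088108, 44358324, 42291511 and 58658094 counts (replicates 1 to 4), against 44555699, 43535272, 44377167 and 46264464 in Sham libraries. Values are in CPM, a level scaled to a common library total, in which 1 count equalled 0.0167 to 0.0237 CPM. Where a gene had no count, the level could still have been that of 3 counts, 0.0502 to 0.0711 CPM by library, and this floor covers counting error only. Genes with 2 counts were 2.27 to 2.82 times as frequent as genes with 1, so counts may not be independent of each other and such floors may be too low. Heart muscle markers were present throughout, with a summed level of 40400 to 46600 CPM over 7 cardiomyocyte genes in MR and 44900 to 52900 CPM in Sham.

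The neutrophil genes were scarce in MR hearts and more abundant, and far more variable, in Sham hearts. The summed level of the 10 genes was 5.44, 6.63, 5.18 and 3.72 CPM in MR replicates 1 to 4, against 42.3, 14.0, 9.82 and 80.4 CPM in Sham replicates 1 to 4. All 4 MR libraries lay below all 4 Sham libraries, and the highest Sham value was 8.19 times the lowest, where the same ratio was 1.78 in MR. Bulk tissue cannot tell fewer neutrophils from less of these transcripts per neutrophil. For 6 of the 10 genes (S100a8, S100a9, Retnlg, Mmp8, Mmp9 and Cxcr2) every MR value was below every Sham value, which held for 3.91% of all 16603 genes tested. Ngp and Ltf were below the lowest Sham value in 3 of 4 MR libraries each, and Csf3r and Il1r2 overlapped more widely.

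The filter on low counts was passed by 9 of the 10 genes, in most cases through their Sham counts, so the number that passed says nothing about a difference. In the edgeR quasi-likelihood test, adjusted over all genes tested, 0 of the 9 rose and 0 fell in MR, against 0.458% of all genes past an adjusted p of 0.05 in either direction and 0.217% in the lower direction. At an unadjusted p under 0.05, 8 of the 9 were lower in MR, against 7.29% of all genes (15.1% in either direction). All 9 log2 fold changes of MR over Sham were negative, with a median of −3.68, while the median over all genes was 0.002. For 8 of the 9 it was under −1, which held for 0.391% of all genes. Genes that passed the filter through their Sham counts lean toward negative values, and the list was chosen with earlier results known. These shares are therefore a description and no independent evidence. DESeq2 called 7 of the 9 lower (2.22% of its genes) and limma-voom called Retnlg and Mmp8 (1.26%). The call therefore depended on the tool.

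**Figure D1:**
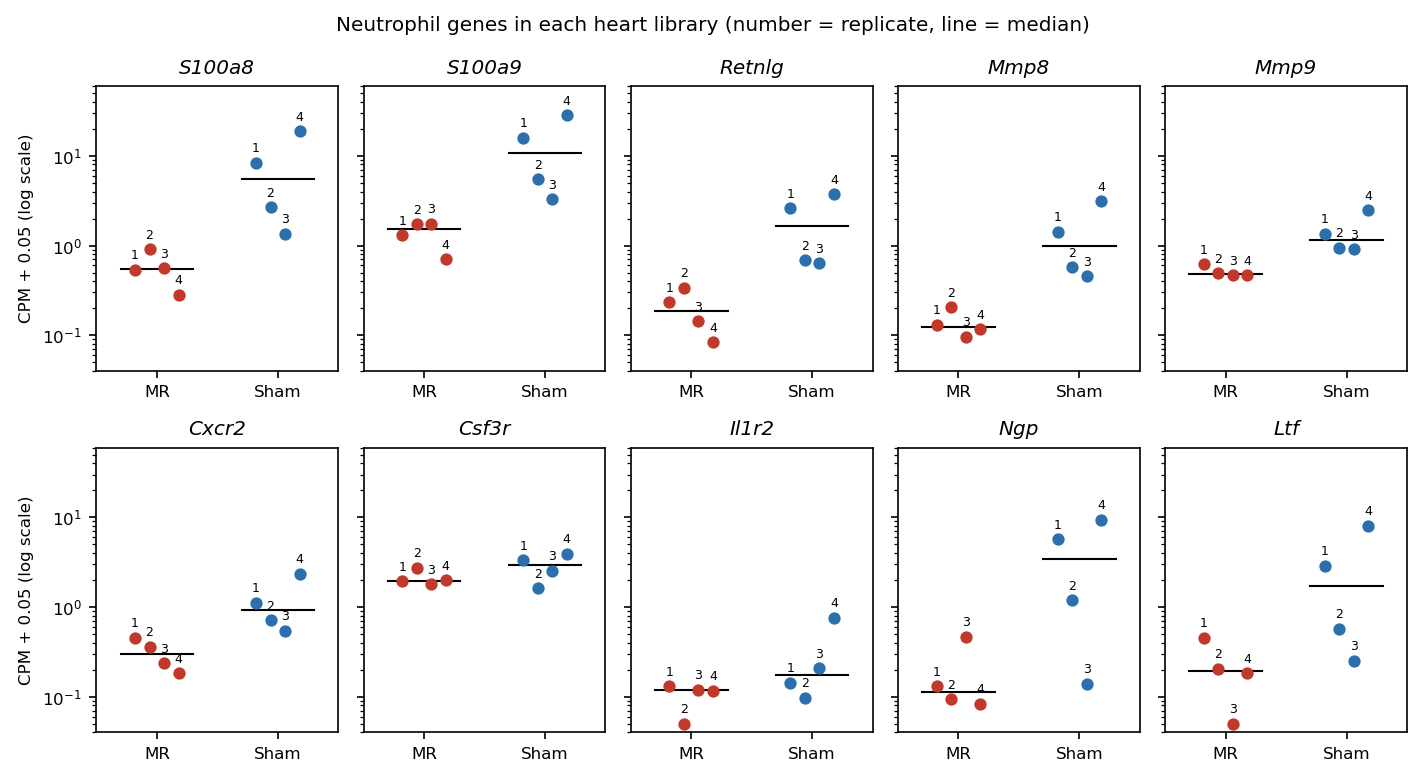
CPM plus 0.05, on a log axis, of each of the 10 neutrophil genes in each library, with MR points to the left of Sham points, the replicate number above each point and a line at the median of each group (n = 4). For S100a8 the MR points stand for 0.234 to 0.864 CPM and the Sham points for 1.31 to 18.8 CPM, while the Csf3r points of both groups overlap.

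S100a8 and S100a9 encode the subunits of calprotectin, a calcium-binding protein that makes up much of the neutrophil cytosol and, once released, is a ligand of the receptors Tlr4 and Ager. S100a8 (ENSMUSG00000056054, GRCm38 chr3:90668978-90670035, plus strand) had 0.486, 0.864, 0.511 and 0.234 CPM in MR replicates 1 to 4, against 8.29, 2.61, 1.31 and 18.8 CPM in Sham. The groups did not overlap, and within Sham replicates 1 and 4 were high and replicate 3 was lowest. S100a8 averaged 0.524 ± 0.259 CPM in MR and 7.74 ± 7.94 CPM in Sham (SD, n = 4 each), a log2 fold change of −3.92 (SE 1.02, edgeR adjusted p = 0.155).

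S100a9 (ENSMUSG00000056071, chr3:90692632-90695721, minus strand) had 1.25, 1.68, 1.70 and 0.653 CPM in MR replicates 1 to 4, against 15.9, 5.45, 3.22 and 28.2 CPM in Sham. Its order of libraries within Sham was that of S100a8, with replicate 4 highest and replicate 3 lowest. S100a9 averaged 1.32 ± 0.491 CPM in MR and 13.2 ± 11.4 CPM in Sham (SD, n = 4 each), with a log2 fold change of −3.35 (SE 0.82, edgeR adjusted p = 0.14). S100a9 held more counts than S100a8 in all 8 libraries. The S100a8 count per S100a9 count was 0.387, 0.513, 0.301 and 0.359 in MR and 0.523, 0.478, 0.406 and 0.665 in Sham, so that the groups overlapped in this ratio.

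The promoter windows of the 10 genes were searched on both strands for cores of 2 transcription factors of the granulocyte lineage. These were C/EBP (TTNNGCAA, reverse TTGCNNAA) and PU.1 (GAGGAA, reverse TTCCTC). The windows run from 250 bases before to 50 bases after the start given by RefSeq for GRCm38.p6, and 9 of the 10 genes had one. A C/EBP core was in 5 of the 9 windows, against 10.8% of 32851 windows of mouse genes, and a PU.1 core in 5 of 9, against 28.3%. A match describes the letters and not a bound site. The windows of the calprotectin pair are printed 5′ to 3′ on the gene's strand, with the matched cores in capitals. They are chr3:90668821-90669120 (plus) for S100a8, with PU.1 cores beginning at positions −170 and −36 from the start, and chr3:90695672-90695971 (minus) for S100a9, with a C/EBP core at −236.
S100a8: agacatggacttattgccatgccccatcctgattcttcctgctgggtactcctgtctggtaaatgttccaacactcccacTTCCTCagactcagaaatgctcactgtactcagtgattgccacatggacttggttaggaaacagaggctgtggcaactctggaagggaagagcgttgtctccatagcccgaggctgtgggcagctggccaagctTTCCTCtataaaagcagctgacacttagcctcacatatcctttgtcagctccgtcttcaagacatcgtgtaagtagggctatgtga
S100a9: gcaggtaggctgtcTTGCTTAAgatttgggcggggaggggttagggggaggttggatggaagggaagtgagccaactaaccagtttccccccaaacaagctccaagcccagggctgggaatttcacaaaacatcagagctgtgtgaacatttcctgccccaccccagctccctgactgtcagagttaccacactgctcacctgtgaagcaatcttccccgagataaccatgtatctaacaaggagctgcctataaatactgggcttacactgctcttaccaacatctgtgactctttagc

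Retnlg encodes a resistin-like protein that mouse neutrophils secrete. Retnlg (ENSMUSG00000022651, chr16:48872621-48874496, plus strand) had 0.182, 0.288, 0.093 and 0.0335 CPM in MR replicates 1 to 4, against 2.55, 0.64, 0.586 and 3.69 CPM in Sham. The lowest MR value rested on 2 counts and the lowest Sham value on 26, and the groups did not overlap. Retnlg averaged 0.149 ± 0.111 CPM in MR and 1.87 ± 1.52 CPM in Sham (SD, n = 4 each), with a log2 fold change of −3.68 (SE 0.79, edgeR adjusted p = 0.0804).

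Mmp8 and Mmp9 encode matrix proteases that neutrophils store in granules: Mmp8 is the neutrophil collagenase, and Mmp9 is gelatinase B, which fibroblasts, macrophages and endothelial cells can also make. Mmp8 (ENSMUSG00000005800, chr9:7558456-7568485, plus strand) had 4, 7, 2 and 4 counts in MR replicates 1 to 4, against 59, 22, 18 and 142 counts in Sham. As levels these were 0.0809, 0.155, 0.0465 and 0.067 CPM in MR, against 1.37, 0.521, 0.405 and 3.07 CPM in Sham. MR was close to the floor of detection and did not overlap with Sham. The log2 fold change of Mmp8 was −3.92 (SE 0.74, edgeR adjusted p = 0.0513), and its means were 0.0874 ± 0.0473 CPM in MR and 1.34 ± 1.23 CPM in Sham (SD, n = 4 each).

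Mmp9 (ENSMUSG00000017737, chr2:164940780-164955850, plus strand) had 0.567, 0.443, 0.418 and 0.419 CPM in MR replicates 1 to 4, against 1.30, 0.90, 0.856 and 2.42 CPM in Sham. It was the steadiest of the 10 genes within MR, at 0.462 ± 0.0709 CPM, and averaged 1.37 ± 0.728 CPM in Sham (SD, n = 4 each). Every MR value was below every Sham value, but the difference was smaller than for Mmp8, with a log2 fold change of −1.57 (SE 0.34, edgeR adjusted p = 0.0587). Among 9 related genes, covering inhibitors of matrix proteases and other members of the family, 0 rose and 0 fell. Of the 9, 4 had an unadjusted p under 0.05 (15.1% of all genes). These were Timp4 (log2 fold change −0.45, adjusted p = 0.122), Mmp2 (0.49, adjusted p = 0.151), Timp2 (0.18) and Timp1 (0.65, adjusted p = 0.21), all from edgeR. DESeq2 called 1 of the 9 higher and 1 lower, where it called 355 of all genes higher and 333 lower, and limma-voom called 0.

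The Mmp8 window, chr9:7558179-7558478 (plus strand), held both cores, as that of Ltf did. It had a C/EBP core at −19 and a PU.1 core at −219, in capitals.
Mmp8: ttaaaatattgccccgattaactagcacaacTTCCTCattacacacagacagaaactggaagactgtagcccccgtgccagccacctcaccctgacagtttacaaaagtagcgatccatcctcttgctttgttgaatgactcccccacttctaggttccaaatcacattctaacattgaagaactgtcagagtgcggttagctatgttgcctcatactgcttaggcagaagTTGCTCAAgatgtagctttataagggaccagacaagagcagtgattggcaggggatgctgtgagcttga

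The receptors had unlike values. Cxcr2, which draws neutrophils toward the chemokines Cxcl1, Cxcl2 and Cxcl5, was lower in every MR library than in any Sham library, while Csf3r, the receptor of granulocyte colony-stimulating factor, overlapped. The difference between the receptors was not tested. Cxcr2 (ENSMUSG00000026180, chr1:74153989-74161246, plus strand) had 0.405, 0.31, 0.186 and 0.134 CPM in MR replicates 1 to 4, against 1.07, 0.663, 0.495 and 2.31 CPM in Sham. The nearest values were MR replicate 1 and Sham replicate 3, and they did not overlap. Cxcr2 averaged 0.259 ± 0.122 CPM in MR and 1.13 ± 0.821 CPM in Sham (SD, n = 4 each), with a log2 fold change of −2.14 (SE 0.50, edgeR adjusted p = 0.0755).

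Csf3r (ENSMUSG00000028859, chr4:126024550-126044440, plus strand) had 1.90, 2.68, 1.74 and 1.94 CPM in MR replicates 1 to 4, against 3.25, 1.56, 2.50 and 3.87 CPM in Sham. The lowest value of all was in Sham replicate 2, and the groups overlapped. Csf3r averaged 2.07 ± 0.418 CPM in MR and 2.80 ± 0.993 CPM in Sham (SD, n = 4 each), with a log2 fold change of −0.44 (SE 0.24, edgeR adjusted p = 0.421). Monocytes and macrophages transcribe Csf3r as well, and their part in its level was not tested. Csf3r made up 34.9%, 40.5%, 33.6% and 52.3% of the counts of the 10 genes in MR, against 7.69%, 11.1%, 25.5% and 4.81% in Sham.

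Il1r2 encodes a decoy receptor that binds interleukin 1 without signalling. Il1r2 (ENSMUSG00000026073, chr1:40074079-40125231, plus strand) had 4, 0, 3 and 4 counts in MR replicates 1 to 4, against 4, 2, 7 and 33 in Sham. Sham replicate 4 was at 0.713 CPM, all other libraries held 7 counts or fewer, and the groups overlapped. It did not pass the filter on low counts. In a fit with no filter its log2 fold change was −2.15 (SE 0.67, edgeR adjusted p = 0.0424), where 1.37% of all genes were called lower. The gene shares its span with the antisense gene Gm16894 and with Gm37347, and how the counting treated strand is not stated, so its counts are uncertain. None of the other 9 genes overlapped an annotated gene.

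No ligand or partner receptor of these proteins passed the edgeR test. Of 13 ligand genes 7 could be tested, and 0 rose and 0 fell in edgeR, with 1 at an unadjusted p under 0.05 and 0 called by DESeq2 or limma-voom. The chemokine genes Cxcl5 (log2 fold change −0.71, adjusted p = 0.372) and Cxcl1 (−0.42, adjusted p = 0.447) and the cytokine gene Il1b (0.95, adjusted p = 0.321) gave values in both directions. Csf3, the ligand of Csf3r, had 0 counts in all 4 MR libraries, against 2, 2, 3 and 0 in Sham, both at the floor. Of 6 partner receptors 5 were tested, and 0 rose and 0 fell in edgeR. Cxcr4, a chemokine receptor that keeps neutrophils in the marrow, had 5.67, 7.31, 7.18 and 5.34 CPM in MR, against 3.64, 2.87, 5.16 and 2.92 CPM in Sham. All MR values of Cxcr4 were above all Sham values, with a log2 fold change of 0.80 (SE 0.18, edgeR adjusted p = 0.0697). DESeq2 and limma-voom called 1 partner receptor higher each, where they called 355 and 248 of all genes higher. The calprotectin receptors Tlr4 (0.29, adjusted p = 0.303) and Ager (−0.82, adjusted p = 0.449) did not pass.

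Among 10 genes by which leukocytes adhere to vessel walls, 1 rose and 0 fell, where 40 of all 16603 genes tested rose and 36 fell. Sele encodes E-selectin, on which circulating neutrophils roll. It had 2.49, 2.13, 2.23 and 2.34 CPM in MR, against 1.11, 1.09, 1.58 and 1.30 CPM in Sham. The groups did not overlap, and the log2 fold change was 0.85 (SE 0.17, edgeR adjusted p = 0.0483). With single libraries left out in turn, Sele stayed past the threshold in 1 of 8 edgeR fits, the one without Sham replicate 3, and its adjusted p reached 0.156 without Sham replicate 4.

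Ngp and Ltf encode proteins of the secondary granules, a cathelicidin-related protein and the iron-binding lactoferrin, both transcribed by maturing marrow neutrophils. They had the most negative log2 fold changes of the 9 genes tested and the largest standard errors. Ngp (ENSMUSG00000032484, chr9:110419747-110423012, plus strand) had 4, 2, 18 and 2 counts in MR replicates 1 to 4, against 244, 48, 4 and 434 counts in Sham. As levels these were 0.0809, 0.0443, 0.418 and 0.0335 CPM in MR, against 5.66, 1.14, 0.0901 and 9.38 CPM in Sham. MR replicate 3 lay above Sham replicate 3, so the groups overlapped through those 2 libraries. Ngp averaged 0.144 ± 0.184 CPM in MR and 4.07 ± 4.29 CPM in Sham (SD, n = 4 each), with a log2 fold change of −4.90 (SE 1.51, edgeR adjusted p = 0.21) that was −6.22 without MR replicate 3.

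Ltf (ENSMUSG00000032496, chr9:111019271-111042767, plus strand) had 20, 7, 0 and 8 counts in MR replicates 1 to 4, against 122, 22, 9 and 369 counts in Sham. The levels were 0.405, 0.155, 0 and 0.134 CPM in MR, against 2.83, 0.521, 0.203 and 7.97 CPM in Sham. Here MR replicate 1 lay above Sham replicate 3, and MR replicate 3, the highest for Ngp within MR, had no count. Ltf averaged 0.173 ± 0.169 CPM in MR and 2.88 ± 3.59 CPM in Sham (SD, n = 4 each), with a log2 fold change of −4.01 (SE 1.39, edgeR adjusted p = 0.253).

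Ngp and Ltf both carried a C/EBP core upstream of the start. The Ngp window, chr9:110419558-110419857 (plus strand), held C/EBP cores at −11 and −138, and the Ltf window, chr9:111019042-111019341 (plus strand), held a C/EBP core at −75 and a PU.1 core at −157. The core nearest to the start reads TTGGGCAA in both.
Ngp: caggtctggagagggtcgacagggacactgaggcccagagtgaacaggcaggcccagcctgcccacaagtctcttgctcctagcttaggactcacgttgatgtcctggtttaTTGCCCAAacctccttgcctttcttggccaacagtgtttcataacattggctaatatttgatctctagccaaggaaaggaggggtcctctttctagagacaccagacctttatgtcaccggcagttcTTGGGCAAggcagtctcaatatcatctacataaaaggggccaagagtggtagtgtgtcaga
Ltf: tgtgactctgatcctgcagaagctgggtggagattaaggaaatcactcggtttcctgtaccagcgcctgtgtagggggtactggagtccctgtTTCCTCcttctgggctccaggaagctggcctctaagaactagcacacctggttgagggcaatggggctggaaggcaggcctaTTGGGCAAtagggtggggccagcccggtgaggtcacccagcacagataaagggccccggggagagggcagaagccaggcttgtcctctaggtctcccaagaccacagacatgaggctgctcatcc

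The make-up of the counts of the 10 genes varied between libraries, as their amount did. Ngp and Ltf together took 8.92% (95% Wilson interval 6.07 to 12.9), 3.01% (1.59 to 5.62), 8.07% (5.17 to 12.4) and 4.5% (2.46 to 8.09) of the counts of the 10 genes in MR replicates 1 to 4. In Sham they took 20.1% (18.3 to 22.0), 11.8% (9.45 to 14.7), 2.98% (1.75 to 5.03) and 21.6% (20.3 to 22.9). Sham replicates 1 and 4 had the highest shares, and Sham replicate 3 had a share close to the lowest in MR. The summed counts include Csf3r, which monocytes and macrophages transcribe as well and which took 33.6% to 52.3% of them in MR and 4.81% to 25.5% in Sham. The shares of Ngp and Ltf depend on it and do not measure the make-up of neutrophils alone. Shares without Csf3r were not compared. The intervals cover counting error only, and reads without molecular identifiers are not independent molecules.

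**Figure D2:**
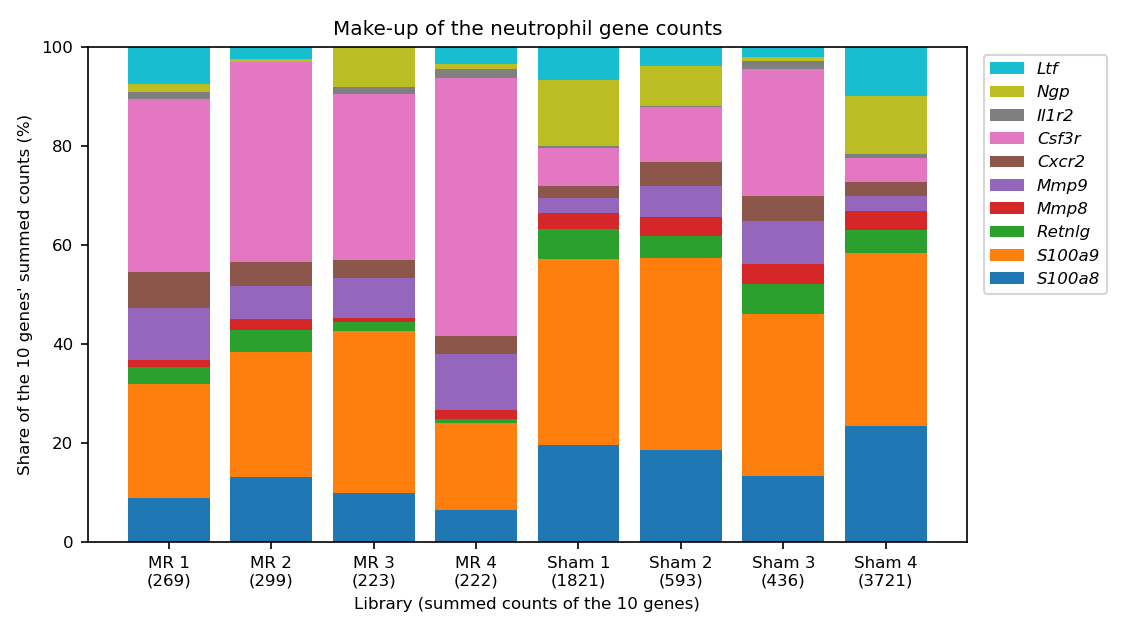
Share in percent that each of the 10 genes takes of the summed counts of all 10 in each library, as stacked bars from 0, with MR libraries to the left of Sham libraries and the summed count under each. Csf3r fills 33.6% to 52.3% of the MR bars and 4.81% to 25.5% of the Sham bars.

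The other granule genes ranged from no counts to 547 in a library (Cfp in MR replicate 4). Of 7 genes listed for the primary granules, which are filled earliest in the marrow, 6 were in the table and 1 could be tested. That gene, Serpinb1a, encodes an inhibitor of granule proteases and not a protein stored in these granules, so it does not stand for them. It had 111 to 189 counts per library and a log2 fold change of 0.04 (edgeR adjusted p = 0.95). The genes of stored proteins, Mpo, Elane, Prtn3 and Ctsg, had too few counts to be tested. Myeloperoxidase (Mpo) had 0, 0, 0 and 2 counts in MR, against 2, 0, 0 and 0 in Sham, and the elastase gene Elane had counts in Sham replicate 4 alone, where it had 4. Of 10 further secondary and tertiary granule genes 6 were tested, 0 rose and 0 fell in edgeR, 1 had an unadjusted p under 0.05, and DESeq2 and limma-voom called 0. All 6 were negative, with a median log2 fold change of −0.74. Chil3, a chitinase-like secreted protein that macrophages make too, had 0.162, 0.222, 0.186 and 0.335 CPM in MR, against 1.14, 0.237, 0.27 and 3.07 CPM in Sham (log2 fold change −2.35, SE 0.83, edgeR adjusted p = 0.229). Lcn2, an iron-scavenging lipocalin, had 2.77, 2.9, 2.7 and 1.79 CPM in MR, against 4.06, 3.06, 2.07 and 7.63 CPM in Sham (log2 fold change −0.74, SE 0.36, edgeR adjusted p = 0.38). Cfp, the complement factor properdin, was at 6.89 ± 1.63 CPM in MR and 7.12 ± 1.56 CPM in Sham (SD, n = 4 each). The untested cathelicidin gene Camp had 2, 2, 5 and 3 counts in MR, against 34, 2, 2 and 42 in Sham, and the surface glycoprotein gene Cd177 had 4, 0, 2 and 0, against 32, 0, 2 and 76. In both genes Sham replicates 1 and 4 were high, and Sham replicates 2 and 3 were at the level of MR. In the fit with no filter the log2 fold changes were −2.82 for Camp (edgeR adjusted p = 7.51e-05) and −4.2 for Cd177 (0.44).

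Other neutrophil genes, of the cell surface and the cytoplasm, had smaller medians among those tested, at −0.10 and −0.36. Genes that failed the filter on low counts do not enter these medians. In the fit with no filter Wfdc21 (−3.81, edgeR adjusted p = 0.00972), Mcemp1 (−2.05, 0.0318) and Clec4e (−1.71, 0.036) passed, on few counts. Ly6g (−2.81, 0.0795) and Asprv1 (−1.6, 0.134) did not pass there, where 1.37% of all genes were called lower. Every untested gene of these lists that had counts was negative there. Of 14 surface genes 6 were tested, and 0 rose and 0 fell in edgeR, with 1 at an unadjusted p under 0.05. Among them limma-voom called 1 lower (1.26% of its genes) and DESeq2 0. The gene under 0.05, Fpr2, a receptor for formylated bacterial peptides, had 0.142, 0.332, 0.209 and 0.184 CPM in MR, against 0.534, 0.474, 0.45 and 0.691 CPM in Sham (log2 fold change −1.32, SE 0.34, edgeR adjusted p = 0.0907). The defining marker Ly6g had 0, 2, 0 and 2 counts in MR, against 6, 4, 0 and 18 in Sham, so its groups overlapped. Of 17 cytoplasmic or secreted genes 9 were tested, and 0 rose and 0 fell in edgeR. At an unadjusted p under 0.05, 3 were lower (7.29% of all genes). DESeq2 called 3 lower (2.22% of its genes) and limma-voom 2 (1.26%). Slfn4, a Schlafen family gene of myeloid cells, had 0.87, 0.665, 0.372 and 0.519 CPM in MR, against 1.95, 1.37, 1.22 and 3.76 CPM in Sham (log2 fold change −1.77, SE 0.37, edgeR adjusted p = 0.061). The subunits of the phagocyte oxidase, which macrophages share, had a median log2 fold change of −0.07, and of the 6 tested 0 rose and 0 fell in edgeR, with 1 (Cybb, 0.21) at an unadjusted p under 0.05 and 0 called by DESeq2 or limma-voom.

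**Figure D3:**
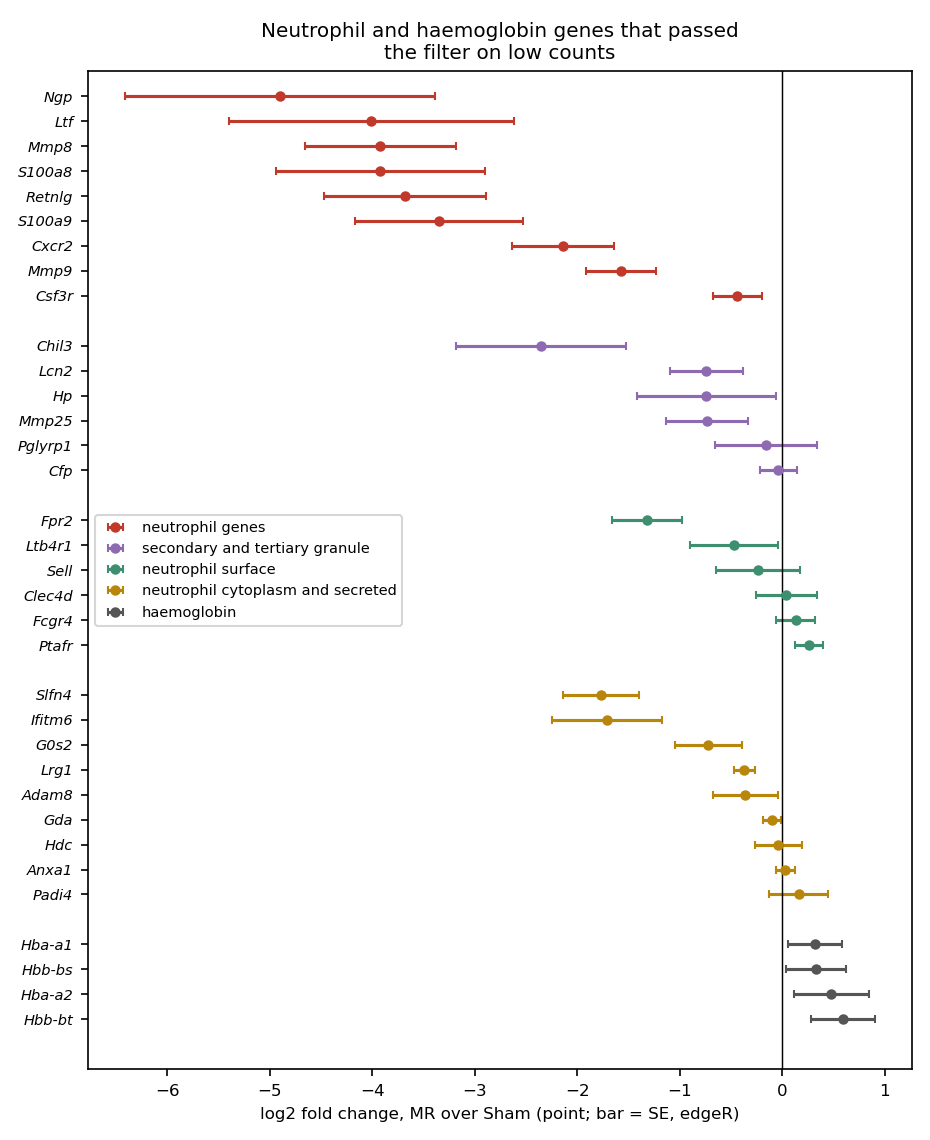
Log2 fold change of MR over Sham from edgeR for each gene tested among the 10 neutrophil genes, the further granule, surface and cytoplasmic lists and the haemoglobin genes, with bars of 1 standard error. The 9 tested neutrophil genes lie between −4.90 and −0.44, and the 4 haemoglobin genes lie between 0.32 and 0.59.

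Compared per kilobase of exon, S100a9 was the most abundant of the 10 transcripts in both groups, at 2.53 ± 0.941 CPM per kb in MR and 25.3 ± 21.9 CPM per kb in Sham (SD, n = 4 each), and S100a8 came next. In MR the order went on with Csf3r at 0.573 ± 0.116 CPM per kb, Retnlg at 0.252 ± 0.187 and Mmp9 at 0.13 ± 0.02, followed by Ngp, Cxcr2, Ltf, Mmp8 and, lowest, Il1r2 at 0.0285 ± 0.0193. In Sham the order went on with Ngp at 3.33 ± 3.51 CPM per kb, Retnlg at 3.15 ± 2.57, Ltf at 0.835 ± 1.04 and Csf3r at 0.774 ± 0.275, followed by Mmp8, Mmp9, Cxcr2 and Il1r2. Csf3r was thus the third most abundant level per kilobase in MR and the sixth in Sham. From S100a8 downward each gene overlapped with its neighbour in both orders, so neighbouring ranks do not hold beyond the spread between libraries. Within each library some of them did hold: in MR, Csf3r was above Retnlg and Cxcr2 above Ltf in 4 of 4 libraries, and in Sham, S100a8 was above Ngp and Retnlg above Ltf in 4 of 4.

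The haemoglobin genes overlapped between the groups. The summed level of Hba-a1, Hba-a2, Hbb-bs and Hbb-bt was 698, 592, 511 and 362 CPM in MR replicates 1 to 4, against 543, 311, 299 and 536 CPM in Sham. The groups overlapped, and the difference of means, MR minus Sham, was 0.37 on the log2 scale (two-sided exact permutation test, p = 0.229, smallest possible 0.0286). All 4 genes had positive log2 fold changes, from 0.32 to 0.59, and 0 passed in edgeR, 0 at an unadjusted p under 0.05 and 0 in DESeq2 or limma-voom. The pairs are near-identical copies, among which the counting can split reads, and their sum is therefore the firmer measure.

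Set against haemoglobin, the neutrophil genes had 7.8, 11.2, 10.1 and 10.3 counts per 1000 haemoglobin counts in MR, against 77.9, 45.1, 32.9 and 150 in Sham. The lowest Sham ratio was above the highest MR ratio, and the means were 9.85 ± 1.45 in MR and 76.5 ± 52.6 in Sham (SD, n = 4 each). Sham replicates 2 and 3 had less haemoglobin transcript than any MR library and more neutrophil transcript than every MR library. Within Sham, replicates 1 and 4 were high and replicates 2 and 3 low for both haemoglobin and the neutrophil genes. Within MR, haemoglobin varied 1.93-fold and the neutrophil sum 1.78-fold, with replicate 4 lowest for both.

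**Figure D4:**
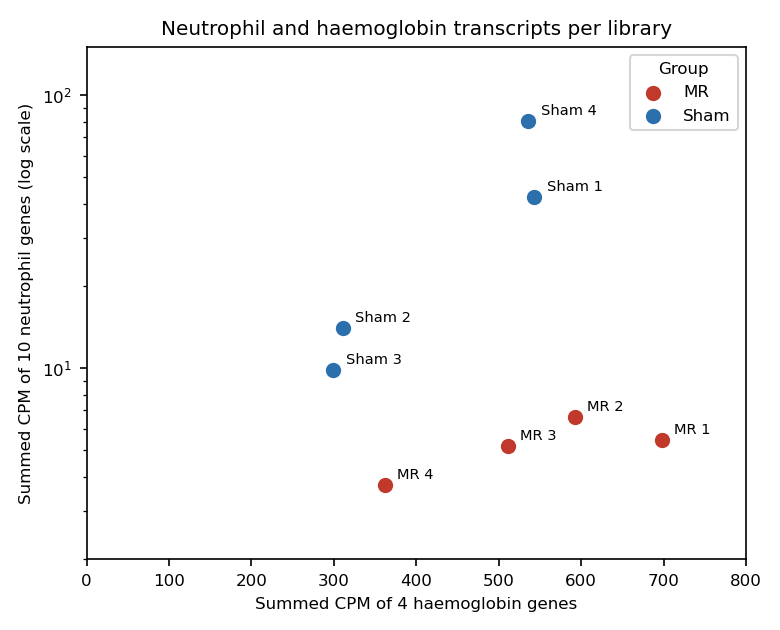
Summed CPM of the 10 neutrophil genes against summed CPM of the 4 haemoglobin genes, a point per library, with its group and replicate number beside it, on a log axis for the neutrophil genes and a linear axis for haemoglobin. MR points lie between 3.72 and 6.63 CPM of neutrophil transcript at 362 to 698 CPM of haemoglobin, and Sham points lie between 9.82 and 80.4 CPM at 299 to 543 CPM.

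With the log2 haemoglobin level of each library as a covariate in the edgeR fit, all 9 log2 fold changes were larger in size, and 7 of the 9 passed, against 1.21% of all genes called lower in that fit. They were S100a8 (−4.66, adjusted p = 0.0117), S100a9 (−3.91, adjusted p = 0.0135), Retnlg (−4.53, adjusted p = 6.52e-05), Mmp8 (−4.57, adjusted p = 0.00099), Mmp9 (−1.85, adjusted p = 0.011), Cxcr2 (−2.74, adjusted p = 0.00379) and Ltf (−5.13, adjusted p = 0.0251), all from edgeR. Ngp (−5.83, adjusted p = 0.0565) and Csf3r (−0.62, adjusted p = 0.147) did not pass. Most of the 9 genes passed the filter through their Sham counts, and the list was chosen with earlier results known. The share called here is therefore a description and no independent evidence. The fit gave the 8 libraries a slope on haemoglobin shared by both groups, and several MR levels were close to the floor. Whether it removes the part of retained blood was not tested. Haemoglobin transcripts measure young red cells and not the volume of blood itself, and whether blood of the groups held different shares of neutrophils was not tested.

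Among genes of other blood cells, 0 passed the edgeR test. Of 49 markers of red cell precursors, platelets, B cells, T cells, natural killer cells and monocytes, 47 were in the table and 27 were tested. Of these, 7 had an unadjusted p under 0.05 (15.1% of all genes), 6 of them higher in MR and 1 lower. DESeq2 called 1 higher and 1 lower, and limma-voom called 2 higher. Over all genes DESeq2 called 355 higher and 333 lower of 14990, and limma-voom called 248 higher of 16603. The summed B cell markers were at 2.98 to 5.61 CPM in MR and 2.79 to 3.63 CPM in Sham, and 3 of the 6 tested had an unadjusted p under 0.05, all higher. Among them Pax5, a transcription factor of B cells, had 25, 12, 22 and 14 counts in MR, against 2, 2, 2 and 10 in Sham (log2 fold change 2.02, SE 0.54, edgeR adjusted p = 0.0948). Natural killer cell markers were at 0.737 to 1.84 CPM in MR and 0.518 to 0.998 CPM in Sham, T cell markers at 1.31 to 3.1 CPM in MR and 1.8 to 3.2 CPM in Sham, and platelet markers at 16.5 to 17.6 CPM in MR and 14.5 to 18.8 CPM in Sham. Red cell precursor markers were at 196 to 231 CPM in MR and 204 to 222 CPM in Sham, most of it Fech, a haem synthesis gene of many tissues, at 143 ± 9.49 CPM in MR and 146 ± 6.43 CPM in Sham (SD, n = 4 each).

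Monocyte markers went in both directions, so that their sum, 141 to 156 CPM in MR and 133 to 147 CPM in Sham, says little of single genes. Ace, which vessel lining cells also transcribe, was at 64.8 ± 2.51 CPM in MR and 50.8 ± 5.66 CPM in Sham (SD, n = 4 each; log2 fold change 0.35, edgeR adjusted p = 0.0678). F13a1, a coagulation factor gene that macrophages transcribe as well, was at 66.5 ± 4.76 CPM in MR and 78.3 ± 2.90 CPM in Sham (−0.23, edgeR adjusted p = 0.124). The chemokine receptor gene Cx3cr1 had all MR values above all Sham values (0.72, edgeR adjusted p = 0.19). Ly6c2, a marker of classical monocytes, was below every Sham value in 3 of 4 MR libraries (−1.02, edgeR adjusted p = 0.341).

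Some markers of resident cells of the heart also lay apart between the groups, and their part in the neutrophil difference was not tested. Among 8 resident macrophage markers 0 rose and 0 fell in edgeR, with 3 at an unadjusted p under 0.05 (15.1% of all genes). DESeq2 and limma-voom called 2 lower each (2.22% and 1.26% of the genes they tested). The summed level of these markers was 206 to 232 CPM in MR and 230 to 247 CPM in Sham. The scavenger receptor genes Cd163 (log2 fold change −0.36, edgeR adjusted p = 0.0697) and Mrc1 (−0.29, edgeR adjusted p = 0.083) had all MR values below all Sham values. Of 7 cardiomyocyte markers 6 were negative and 5 were lower at an unadjusted p under 0.05 (7.29% of all genes). Of them, 0 were called in edgeR or limma-voom and 3 were called lower by DESeq2 (2.22% of its genes). Of 6 fibroblast markers 2 rose in edgeR, where 40 of all 16603 genes tested rose. They were the collagen genes Col1a2 (0.63, SE 0.09, adjusted p = 0.0159) and Col1a1 (0.81, SE 0.15, adjusted p = 0.0483). With single libraries left out in turn, Col1a2 stayed past the threshold in 4 of 8 fits (without MR replicates 1 and 4 and Sham replicates 1 and 3) and Col1a1 in 1, that without Sham replicate 3. The lung surfactant gene Sftpc was at 0 counts in every library, and the summed eosinophil markers did not exceed 0.377 CPM, with Epx and Ear6 at 0 throughout.

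The size of the neutrophil difference leaned on single Sham libraries, without a change of sign in the 9 genes tested when any library was left out. Without Sham replicate 4, the library richest in these transcripts, the log2 fold changes were −2.98 for S100a8, −2.65 for S100a9, −3.10 for Retnlg and −3.11 for Mmp8. They were −1.14 for Mmp9, −1.52 for Cxcr2, −0.24 for Csf3r, −4.06 for Ngp and −2.73 for Ltf. Without Sham replicate 3, the library poorest in them within its group, 5 genes passed in edgeR (2.32% of all genes called lower): S100a9 (adjusted p = 0.0438), Retnlg (0.0131), Mmp8 (0.00314), Mmp9 (0.00869) and Cxcr2 (0.00937). S100a8 and Ngp both stood at an adjusted p of 0.0507 there. With any of the other 7 libraries left out, 0 of the tested genes passed.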

How the data were processed

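The authors deposited unnormalized read counts, with a row per Ensembl gene and a column per library. The submitters' processing notes name HISAT2 2.0.5 and mm10 without saying what each was used for. Not given in the sources used here are the counting tool, its annotation and how it treated strand. Per the labels' protocols, RNA came from powdered frozen heart by TRIzol extraction, and an ABclonal kit for mRNA was used. Symbols, coordinates and exon lengths came from GENCODE M21 on GRCm38, and 32350 of 33105 identifiers matched.

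Columns were tied to libraries through their titles and to groups through the treatment label. Title numbers of MR and Sham libraries do not interleave, so a handling difference that follows them cannot be told apart from MR. Replicate numbers follow the order of the records and only name libraries.

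The 16603 genes that passed filterByExpr (edgeR 4.0.16 in R 4.3.3, minimum count 10, minimum total 15) were compared by edgeR's quasi-likelihood F test, robustly moderated, after TMM scaling, with Benjamini-Hochberg adjustment over all genes tested and a threshold of 0.05. Where no other tool is named, an adjusted p is edgeR's. The standard error is the log2 fold change divided by the square root of F. CPM used TMM-scaled totals. Alternatives were RLE scaling, library totals, no filter, at least 1 CPM in 4 libraries, DESeq2 1.42.0, voom with quality weights in limma 3.58.1, no robust moderation, a haemoglobin covariate and each library left out. The edgeR step was tested on simulated data.

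All 10 genes are described. Genes named from the other lists are among the up to 6 of a list with the lowest unadjusted p. The rest are untested genes, given by their counts or by the fit with no filter. Not every list has a gene named. The 10 genes and the 24 other lists were chosen with earlier results of these data known, so their direction is no independent evidence. Of the listed genes, 4 were not found in the table.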

Additional observations from a re-analysis of the deposited data

Results flagged for a closer look

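Each of the 28 sets of 4 values that describe the neutrophil and haemoglobin levels in a group was searched for a library far from the other 3, by Dixon's ratio of the gap to the whole range at its 95% critical value. Chance marks about 1 in 20 sets, and 3 were marked. Ngp was highest in MR replicate 3, at 0.418 CPM against 0.0335, 0.0443 and 0.0809 CPM in the other MR libraries, a ratio of 0.877, while Ltf had 0 counts in that library. Mmp9 was highest in MR replicate 1, at 0.567 CPM against 0.418, 0.419 and 0.443 CPM, a ratio of 0.833. Il1r2 was highest in Sham replicate 4, at 0.713 CPM against 0.0474, 0.0929 and 0.158 CPM, a ratio of 0.834, in the library that also had the highest level of the other 9 genes.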

How the results depend on the processing

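None of the 9 tested neutrophil genes changed sign in an alternative that tested it, and 0 were called higher. Il1r2 was tested with no filter only. The number called lower was 0 in the edgeR fit reported, where 0.217% of all genes were called lower. It was 7 in DESeq2 (2.22% of its genes), 2 in limma-voom (1.26%), 4 with no robust moderation (0.253%) and 7 with the haemoglobin covariate (1.21%). With no filter it was 4 of 10, with Il1r2 among them (1.37%). With single libraries left out it was 0 to 5, the 5 being without Sham replicate 3 (2.32%). Over all genes the fit gave 40 higher and 36 lower (52.6% higher) and library totals alone gave 53 higher and 17 lower (75.7%). The other settings gave 517 higher and 419 lower with no filter, 355 and 333 in DESeq2, 248 and 209 in limma-voom, and 178 and 201 with the haemoglobin covariate; 20 were lower under the filter of at least 1 CPM, which kept 3 of the 10 genes. With single libraries left out, 1 to 497 genes were higher and 2 to 390 lower. The haemoglobin difference was 0.23 to 0.55 with single libraries left out (exact permutation p = 0.171 to 0.514) and 0.42 on library totals. No paired analysis was possible because the labels give the groups no shared replicate numbers. Counts under 10 in MR libraries limit what can be said of Retnlg, Mmp8, Cxcr2, Il1r2, Ngp and Ltf there.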

Other observations

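Genes were ranked by the likeness of their levels over the 8 libraries to the mean pattern of the 9 tested neutrophil genes. The ranking left out these 9 genes, and genes that failed the filter on low counts, such as Camp and Cd177, could not enter it. That the genes named next are not known as neutrophil genes therefore follows in part from these choices. Among 16594 ranked genes, the 15 most alike were Mov10l1, Ercc1, Ddx5, Fgf13, Idh2, Ier3, Fam174b, Hyal2, Ist1, Trip10, Psmc3, Pink1, Sord, Aldh2 and Mid1ip1, with Pearson correlations of 0.966 to 0.997 as a description. The points share the difference between the groups and the libraries themselves, and likeness compares shape and not size. The 15 are the highest of all ranked genes over 8 points, so their correlations are high by selection. Mov10l1, a helicase gene best known from the male germ line with a heart isoform, had 42.3, 44.4, 40.5 and 38.1 CPM in MR, against 60.7, 51.6, 48.3 and 70.3 CPM in Sham (log2 fold change −0.48, edgeR adjusted p = 0.065). Idh2, the mitochondrial NADP-dependent isocitrate dehydrogenase, had 1090, 1130, 1060 and 1020 CPM in MR, against 1660, 1420, 1340 and 1770 CPM in Sham, and fell by 0.53 on the log2 scale (edgeR adjusted p = 0.0293); it stayed past the threshold in 2 of the 8 fits with a library left out, those without Sham replicate 1 and without Sham replicate 3. Both genes had Sham replicate 4 highest and Sham replicate 3 lowest within Sham, as S100a8 and S100a9 did. They were picked for likeness to a pattern that includes S100a8 and S100a9, so this shared order follows from the choice. Over all 8 libraries together, the haemoglobin genes had correlations of −0.098 to 0.141 with the same pattern. These values mix the groups: within Sham, replicates 1 and 4 were high and replicates 2 and 3 low for both haemoglobin and the neutrophil genes.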
